A study of Mus musculus with 6 samples.

Results

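The 38 genes described here encode the antioxidant, glutathione, metallothionein and iron-handling proteins of the mouse, and they were listed by name and function with earlier results of these data known. They were taken in 6 classes, namely superoxide dismutases and catalase (4 genes), peroxiredoxins and thioredoxins (11), glutathione enzymes (14), metallothioneins (2), iron genes (4) and the regulators and indicator of the NRF2 pathway (3). Of these, 37 were found among the 17145 genes of the deposited count table, and 35 held at least 10 unique molecular identifiers (UMIs, the tags that count single molecules) over all libraries and were tested among 7665 genes. Gpx4 had no row under its symbol and is not analysed here, while Gstp1 and Ftl1 fell under 10 UMIs.

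Mitochondria leak electrons to oxygen and thereby make superoxide, which superoxide dismutases turn into hydrogen peroxide. Catalase, the glutathione peroxidases and the peroxiredoxins remove that peroxide, the latter drawing electrons from glutathione or thioredoxin and, in the end, from NADPH. The transcription factor NRF2 (encoded by Nfe2l2) drives many of these genes from antioxidant response elements when its inhibitor KEAP1 is oxidized. Metallothioneins bind zinc and copper, ferritin stores iron, and cardiomyocytes, being dense in mitochondria, depend on all of these systems.

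The 6 libraries came from fresh-frozen sections of FS6KD hearts. These mice carry the gene-trap allele Ndufs6 gt/gt on a mixed C57BL/6J and 129/Ola background, which lowers Ndufs6, a subunit of respiratory complex I, and both groups share it. The sections were stained for the stress-induced transcription factor Atf3, and ultraviolet light released the in situ reverse transcription primers only in chosen areas (photo-isolation chemistry), giving 3 Atf3_high and 3 Atf3_low libraries from areas within Atf3-positive clusters. The comparison asks how the transcriptome of areas with high Atf3 differs from that of areas with low Atf3 in FS6KD hearts, and no wild-type heart is part of it. The labels call the samples female cardiomyocytes of Ndufs6 knockdown genotype. The study calls the 3 libraries of a group biological replicates. The age of these mice, and which libraries came from the same heart, are not given in the sources used here.

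The libraries held 81117 to 210588 UMIs and 6936 to 11971 detected genes. Transcripts of the trapped gene Ndufs6 were nearly absent, with 5 UMIs over all libraries. The mRNA of Atf3 itself, which was selected on as protein, counted 50, 7 and 25 UMIs in the Atf3_high libraries and 35, 0 and 8 in the Atf3_low libraries, and its groups overlapped. Atf3_high replicate 2 stood apart from its label, since Ddx3y and Eif2s3y, both on the Y chromosome, summed to 16 UMIs there and Xist to 0, where the other 5 libraries held 0 or 1 and 3 to 26. No Atf3_low library showed this pattern, so none can be taken to come from the same heart as that library. Results are therefore also given without Atf3_high replicate 2. Of the 11 cardiomyocyte markers, 10 were in the table, and their summed level was 23800 to 45400 CPM (normalised UMI counts on the counts-per-million scale) in Atf3_high against 46100 to 61000 in Atf3_low. All 10 were lower in Atf3_high and 4 of them (40%) had an unadjusted p under 0.05, beside 5.79% of all genes tested. Of these only the cardiac myosin heavy chain Myh6 was called at an adjusted p under 0.05 (log2 fold change -1.81, edgeR quasi-likelihood test, Benjamini-Hochberg adjusted p = 0.00512). The summed level of the 7 fibroblast markers was 1100 to 5190 CPM in Atf3_high against 531 to 2570 in Atf3_low. All 7 were higher, and 3 (42.9%) had an unadjusted p under 0.05. The summed ranges overlapped for the endothelial markers (666 to 748 against 340 to 687 CPM), the macrophage markers (172 to 340 against 216 to 359 CPM) and the mural markers (253 to 711 against 136 to 559 CPM). Hbb-bs, the one globin gene with 10 or more UMIs, was present in 5 of 6 libraries, at 0 only in Atf3_low replicate 3. Among the defining markers, the fibroblast receptor Pdgfra was at 0 in Atf3_low replicate 2, the macrophage marker Adgre1 in 4 libraries, and the mural markers Acta2 and Myh11 in Atf3_low replicate 3. The part of this difference in cell makeup in the results below was not tested, and in such pooled areas fewer cells of a type cannot be told apart from less RNA per cell.

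**Figure D1:**
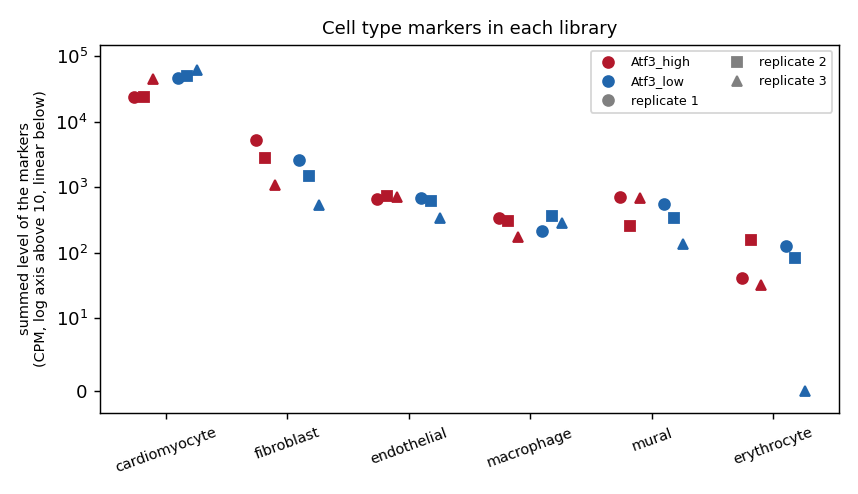
Summed level of each cell type marker list (CPM, logarithmic axis above 10 and linear below) in the 3 Atf3_high (red) and 3 Atf3_low (blue) libraries, with the symbol giving the replicate number. The cardiomyocyte sum of each Atf3_high library, at most 45400, lies below that of each Atf3_low library, at least 46100, whereas the fibroblast sums overlap.

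None of the 35 antioxidant and iron genes was called between Atf3_high and Atf3_low areas after adjustment over all genes tested (edgeR quasi-likelihood test, Benjamini-Hochberg adjusted p from 0.76 to 0.996). Over all 7665 genes tested 7 were called, or 0.0913%. At an unadjusted p under 0.05 there were 3 members, which is 8.57% of those tested, beside 5.79% of all genes. These were Gclm, Gstm1 and Txn1, all higher in Atf3_high and all known NRF2 targets. In the higher direction alone the share of all genes was 3.55%, and in the lower direction, where no member stood, it was 2.24%. DESeq2 called 0 of the 19 members to which it gave an adjusted p, with 1 at an unadjusted p under 0.05, limma-voom called 0 with 2, and limma-trend called 0 with 4. The share of all genes at an unadjusted p under 0.05 was 3.25%, 5.01% and 5.53% in these fits. The count of 3 became 1 without Atf3_high replicate 1, without Atf3_high replicate 2 or without Atf3_low replicate 2, and 0 without Atf3_low replicate 1. The share of all genes in these fits was, in the same order, 4.27%, 4.48%, 5.73% and 6.79%.

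In direction the members were divided, 15 being higher and 20 lower in Atf3_high. Their median log2 fold change was -0.08, beside 0.11 over all genes tested, and the single values ran from -1.23 to 1.66. Scaled by library size alone, 22 members were higher and the median of all genes moved from 0.11 to 0.31, so directions near 0 depend on the scaling. Under that scaling 79.8% of all genes at an unadjusted p under 0.05 were higher, beside 61.3% in the reported fit, 51.0% with DESeq2, 50.8% with limma-voom, 51.9% in thinned libraries and 50.4% under a stricter expression filter. For 4 members (11.4%) the groups did not overlap, beside 11.0% of all genes: Prdx6 and Gsr lay higher in every Atf3_high library, and Sod2 and Glrx lower. Without the library with Y-linked UMIs, 0 members were called and 1 had an unadjusted p under 0.05 (beside 4.48% of all genes). The members' median was then 0.02, beside 0.11 over all genes.

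The error of these values was wide. The standard error of a member's log2 fold change ran from 0.34 to 1.21, with a median of 0.66, and only Sod1 and Fth1 had a 95% confidence interval lying wholly between -1 and 1, that is, within a 2-fold difference either way. For the other members a 2-fold difference was not excluded by this depth and spread in at least one direction.

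**Figure D2:**
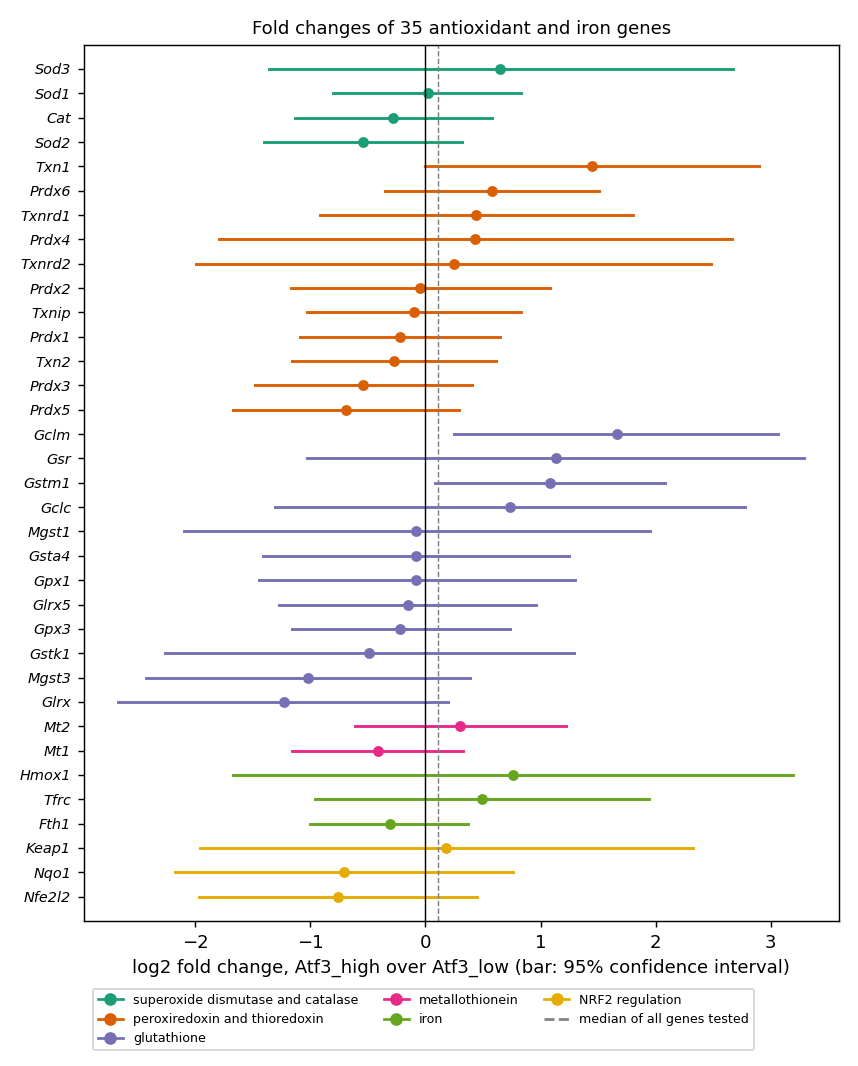
Log2 fold change of the 35 tested genes, Atf3_high over Atf3_low, with 95% confidence intervals, coloured by class and ordered by size within it. The dashed line is the median of all 7665 genes (0.11), and the intervals of Gclm and Gstm1 lie above 0, that of Txn1 reaching it.

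The strongest values lay among the glutathione genes. Gclm (chr3:122245557-122270732, plus strand of GRCm38) encodes the modifier subunit of glutamate-cysteine ligase, which makes the first, rate-limiting step of glutathione synthesis efficient. It was counted at 34, 18 and 9 UMIs in Atf3_high replicates 1, 2 and 3, and at 5, 3 and 6 in the Atf3_low replicates. Its normalised levels were 173, 217 and 41.9 CPM against 33.7, 25.0 and 81.7 CPM. Replicates 1 and 2 of Atf3_high thus stood above every Atf3_low library, whereas Atf3_high replicate 3 stood below Atf3_low replicate 3. The mean was 144 ± 91.1 CPM (SD, n = 3) against 46.8 ± 30.5, with a log2 fold change of 1.66 ± 0.70 (SE) and an edgeR adjusted p of 0.760 (unadjusted p = 0.022 in the same fit across all genes). The fold change stayed above 0 when each library was left out, from 1.26 without Atf3_high replicate 2 to 2.17 without Atf3_low replicate 3. The 2 Atf3_high libraries with the most Gclm were also those with the lowest cardiomyocyte marker sums, 23800 and 24100 CPM. Atf3_low replicate 3, however, had the highest sum of all (61000 CPM) and the most Gclm of its group. The part of cell makeup in the Gclm level was not tested.

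The reads given to Gclm are uncertain in part. An annotated Gclm transcript has an exon that matches the cyclophilin gene Ppia (97.909% identity over 287 bases) and its retrocopies, and Gm17494 overlaps the locus on the opposite strand. Gm17494 counted 8, 11 and 5 UMIs in Atf3_high and 5, 3 and 0 in Atf3_low. The strand setting of the counting is not given in the sources used here, so reads of the partners may not be separable. With near-identical copies added in, the Gclm log2 fold change was 1.12.

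Because Gclm is a textbook NRF2 target, its promoter is shown with the antioxidant response element core TGACNNNGC in capitals, beside that of Prdx1, another NRF2 target, whose log2 fold change was -0.22. Both are RefSeq promoter stretches of GRCm38.p6 on the plus strand, the Gclm stretch (chr3:122245397-122245496) running from position -160 to -61 relative to the annotated start and the Prdx1 stretch (chr4:116685419-116685518) from -180 to -81. In both the core reads on the minus strand, so that its reverse complement is in capitals.
Gclm: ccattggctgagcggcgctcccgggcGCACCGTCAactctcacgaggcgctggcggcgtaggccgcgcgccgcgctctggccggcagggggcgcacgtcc
Prdx1: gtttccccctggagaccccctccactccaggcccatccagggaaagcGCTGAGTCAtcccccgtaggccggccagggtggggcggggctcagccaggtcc

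A RefSeq window of 250 bases before to 50 after the start was found for 32 of the 38 genes. TGACNNNGC, searched on both strands, lay in the window of 7 of them (Gclm, Mgst1, Mt2, Nfe2l2, Prdx1, Sod1 and Txnrd1), which is 16.7% of the members' 42 windows beside 12.4% of all 32851 windows. The bases TGACGTCA, the consensus bound by ATF and CREB factors, lay in 0 of the members' windows and in 1.79% of all windows. A match is a description of the letters and not a measured binding site.

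The catalytic partner of Gclm, Gclc, counted 13, 2 and 4 UMIs in Atf3_high and 6, 1 and 1 in Atf3_low (log2 fold change 0.73 ± 1.02). At these counts no difference was detectable, and 3 UMIs correspond to 14.0 to 40.9 CPM depending on the library. Gsr, the glutathione reductase that returns oxidized glutathione to its reduced form, counted 9, 3 and 6 UMIs against 4, 2 and 0. Its levels of 45.7, 36.2 and 27.9 CPM stood above the 27, 16.7 and 0 CPM of Atf3_low, but the gap between the groups was worth less than 1 UMI in any library, and the log2 fold change of 1.13 ± 1.07 had an edgeR adjusted p of 0.996.

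Gstm1 (chr3:108012255-108017973, minus strand), a mu-class glutathione transferase that conjugates glutathione to reactive compounds, counted 37, 25 and 115 UMIs in Atf3_high and 18, 13 and 20 in Atf3_low. Its levels were 188, 302 and 536 CPM in Atf3_high against 121, 108 and 272 CPM. Atf3_high replicate 3, the library where Gclm was lowest in its group, had the most Gstm1, and only Atf3_high replicate 1 lay within the range of Atf3_low. The mean of 342 ± 177 CPM (SD, n = 3) against 167 ± 91.2 gave a log2 fold change of 1.08 ± 0.50 (SE), with an edgeR adjusted p of 0.819 and an unadjusted p of 0.0347 in the same fit across all genes. Without Atf3_high replicate 3 it was 0.57.

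Glrx, the cytosolic glutaredoxin that reduces proteins joined to glutathione, had the lowest fold change of all members. It counted 3, 5 and 12 UMIs in Atf3_high and 11, 13 and 9 in Atf3_low, that is 15.2, 60.3 and 55.9 CPM against 74.1, 108 and 123 CPM. Every Atf3_high library lay below every Atf3_low library, Atf3_high replicate 1 being far below the rest. The log2 fold change of -1.23 ± 0.71 had an edgeR adjusted p of 0.964. Leaving out Atf3_high replicate 1 brought it to -0.79.

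Of the 12 glutathione genes tested, 4 were higher and 8 lower, with a median log2 fold change of -0.08. The peroxidases lay near 0, at -0.08 ± 0.68 for the cytosolic Gpx1 and -0.22 ± 0.47 for the secreted Gpx3. The transferases other than Gstm1 ranged from -0.08 for Gsta4 and Mgst1 through -0.49 for the mitochondrial Gstk1 to -1.02 ± 0.70 for Mgst3, which was at 0 in Atf3_high replicate 2 and at 20 UMIs in Atf3_low replicate 2. Glrx5, the mitochondrial glutaredoxin of iron-sulfur cluster assembly, was at -0.15 ± 0.55. Gstp1 counted 0, 0 and 4 UMIs in Atf3_high and 3, 0 and 1 in Atf3_low, while its pseudogene copy Gstp-ps held 37 UMIs. The lipid peroxidase gene Gpx4 likewise has a near-identical copy, Gpx4-ps2 (99.738% identity over 762 bases), which counted 21, 18 and 24 UMIs in Atf3_high and 7, 14 and 11 in Atf3_low, and its groups overlapped at 107 to 217 CPM against 47.2 to 150 CPM.

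**Figure D3:**
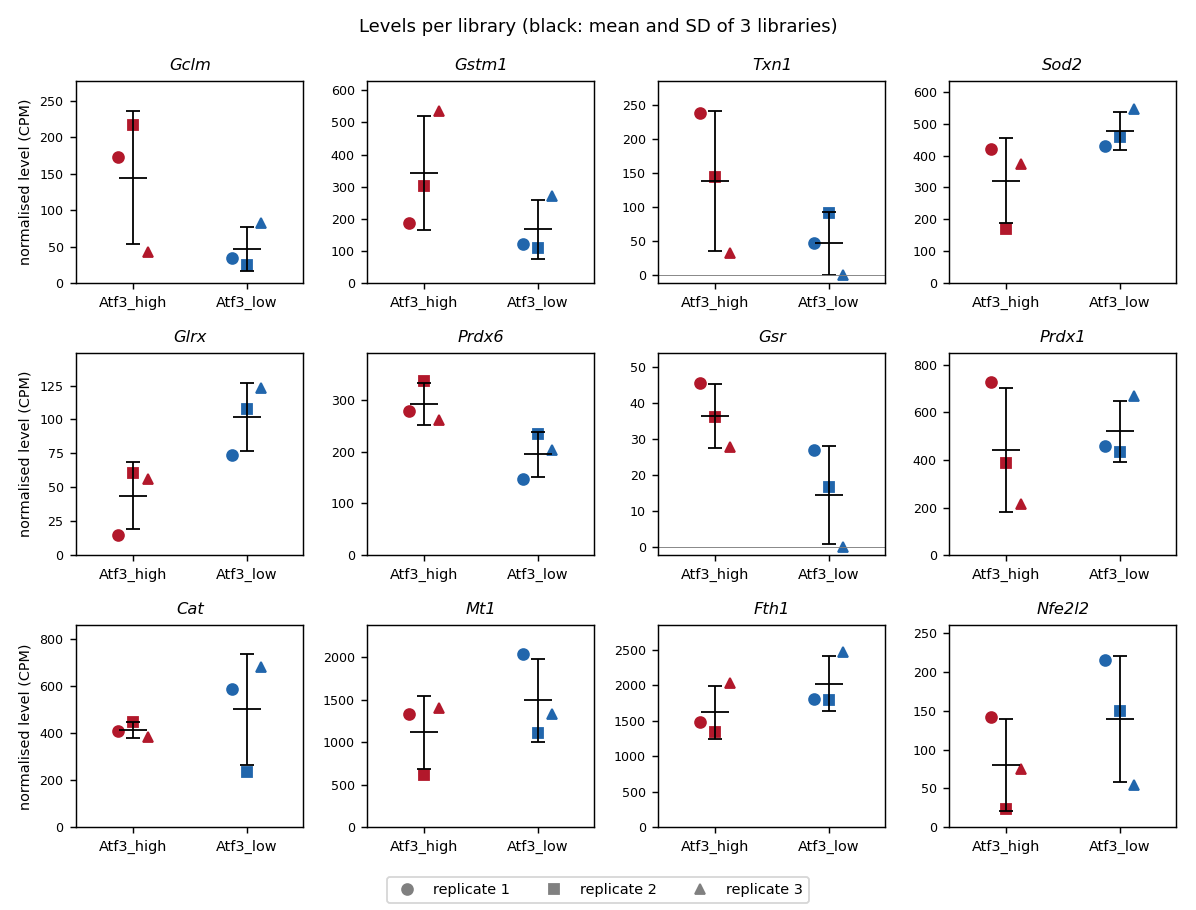
Normalised level (CPM, linear axes, each gene on its own scale) of 12 members in each library, Atf3_high in red and Atf3_low in blue, with symbols for the replicate number and black bars for the mean and SD of 3 libraries. Prdx6 and Gsr are higher, and Sod2 and Glrx lower, in all 3 Atf3_high libraries, while for Gclm and Txn1 Atf3_high replicate 3 lies among the Atf3_low libraries.

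Among the peroxiredoxins and thioredoxins, Txn1 (chr4:57943373-57956411, minus strand), the cytosolic thioredoxin that recharges the peroxiredoxins, had the smallest p. It counted 47, 12 and 7 UMIs in Atf3_high and 7, 11 and 0 in Atf3_low. The levels were 239, 145 and 32.6 CPM against 47.2, 91.8 and 0 CPM, and as for Gclm the first 2 Atf3_high replicates stood above Atf3_low and the third did not. The log2 fold change was 1.45 ± 0.72 with an edgeR adjusted p of 0.861 (unadjusted p = 0.0499 in the same fit across all genes), and it was 0.75 without Atf3_high replicate 1. Its reductase Txnrd1 counted 22, 10 and 11 UMIs against 16, 3 and 5 (log2 fold change 0.44 ± 0.67). Txnip, which binds and blocks thioredoxin, counted 45, 21 and 104 UMIs against 22, 54 and 34, at -0.10 ± 0.46, a value whose sign turned with library size alone (0.08) and with limma-voom (0.06).

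Prdx6, a peroxiredoxin that uses glutathione and repairs oxidized phospholipids, was higher in every Atf3_high library. It counted 55, 28 and 56 UMIs against 22, 28 and 15, and its levels were 279, 338 and 261 CPM against 148, 234 and 204 CPM. The groups were close, with the lowest Atf3_high library just above the highest Atf3_low library. The mean was 293 ± 40.2 CPM (SD, n = 3) against 195 ± 43.4, with a log2 fold change of 0.58 ± 0.46 and an edgeR adjusted p of 0.986. Left out 1 at a time, the libraries gave 0.35 to 0.69.

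Prdx1, the most abundant peroxiredoxin here by UMIs and a cytosolic NRF2 target, counted 143, 32 and 46 UMIs in Atf3_high and 68, 52 and 49 in Atf3_low. Its levels of 727, 386 and 214 CPM in Atf3_high spread more widely than the 458, 434 and 667 CPM of Atf3_low, and enclosed them. The log2 fold change was -0.22 ± 0.43, and it turned to 0.12 without Atf3_high replicate 3. Cytosolic Prdx2 was at -0.05 ± 0.56 and Prdx4 of the endoplasmic reticulum, with 22 UMIs in all, at 0.43 ± 1.10.

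The mitochondrial members of the peroxide-removing chain lay mostly on the low side. Prdx3, the main peroxiredoxin of the matrix, counted 62, 7 and 58 UMIs against 58, 30 and 27 (log2 fold change -0.54 ± 0.47), and Prdx5 counted 45, 6 and 72 against 27, 58 and 30 (-0.69 ± 0.48). For both, Atf3_high replicate 2 was far the lowest, with 84.5 CPM of Prdx3 and 72.4 CPM of Prdx5, and without it the values were -0.21 and -0.34. The mitochondrial thioredoxin Txn2 was even across libraries, from 238 to 342 CPM, at -0.27 ± 0.44. Its reductase Txnrd2 was at 0.25 ± 1.11 on 21 UMIs.

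Sod2, the manganese superoxide dismutase of the mitochondrial matrix, counted 83, 14 and 80 UMIs in Atf3_high and 64, 55 and 40 in Atf3_low. The levels of 422, 169 and 373 CPM all lay below the 431, 459 and 545 CPM of Atf3_low, but Atf3_high replicate 1 was only just below the lowest of them. The mean was 321 ± 134 CPM (SD, n = 3) against 478 ± 59.2, with a log2 fold change of -0.54 ± 0.42 and an edgeR adjusted p of 0.983. Without Atf3_high replicate 2 it was -0.27. Over the 7 mitochondrial members, 6 were lower and 1 higher, with a median of -0.49, and none had an unadjusted p under 0.05. The 10 cardiomyocyte markers, which mark the cell type densest in mitochondria, had a median of -0.56 in the same comparison, and their part in the mitochondrial values was not tested.

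Sod1, the cytosolic copper-zinc enzyme, was the member with the smallest difference. It counted 91, 30 and 118 UMIs against 77, 58 and 26, or 462, 362 and 550 CPM against 519, 484 and 354 CPM. The log2 fold change of 0.02 had a 95% confidence interval from -0.80 to 0.83. Extracellular Sod3 was at 0.65 ± 1.00 on 29 UMIs. Catalase (Cat), the peroxisomal enzyme that splits hydrogen peroxide, counted 80, 37 and 82 UMIs in Atf3_high and 87, 28 and 50 in Atf3_low. Its 406, 447 and 382 CPM in Atf3_high lay between the 234 and the 586 and 681 CPM of Atf3_low, at -0.28 ± 0.42.

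The most abundant members were the ferritin heavy chain Fth1, which oxidizes and stores iron, and Mt1, the zinc-binding and copper-binding metallothionein. Together they held 30.6% to 41.8% of the members' UMIs in each library. The members as a whole held 0.652% to 0.926% of a library's UMIs, lowest in Atf3_high replicate 2. As CEL-seq2 reads the 3′ end of each molecule, these levels were not divided by transcript length.

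Fth1 counted 292, 111 and 438 UMIs in Atf3_high and 268, 214 and 181 in Atf3_low, or 1480, 1340 and 2040 CPM against 1810, 1790 and 2470 CPM. Both groups had their highest value in replicate 3, and they overlapped. The log2 fold change was -0.31 with a 95% confidence interval from -1 to 0.37 and an edgeR adjusted p of 0.996. Its light-chain partner Ftl1 had only 6 UMIs, 1, 0 and 2 against 1, 1 and 1. The Ftl1 transcript has 5 near-identical copies in the annotation, and how reads mapping to several genes were counted is not given in the sources used here.

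Iron regulatory proteins bind hairpins in these mRNAs, blocking ferritin translation from the 5′ end and stabilizing the transferrin receptor message from the 3′ end, so that mRNA level alone does not report ferritin protein. The hairpins are shown with their loop in capitals, read from GENCODE transcripts of GRCm38, because they separate the message counted here from the protein it gives. They lie at chr19:9982732-9982759 in the 5′ UTR of Fth1 (plus strand), at chr7:45459780-45459807 in the 5′ UTR of Ftl1 (minus strand) and at chr16:32631219-32631246 in the 3′ UTR of Tfrc (plus strand).
Fth1: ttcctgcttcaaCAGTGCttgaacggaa
Ftl1: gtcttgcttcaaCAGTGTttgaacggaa
Tfrc: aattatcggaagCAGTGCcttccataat

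The pattern CNNNNNCAGTGN, searched with its last base any but G, lay in the last 200 bases of the 5′ UTR of 3.65% of 19559 genes. The 3′ UTR of Tfrc holds 5 matches, a number reached by 0.230% of genes. The transferrin receptor Tfrc, which takes up iron, counted 25, 10 and 6 UMIs in Atf3_high and 3, 14 and 4 in Atf3_low (log2 fold change 0.49 ± 0.72). Hmox1, the heme oxygenase that frees iron from heme, counted 14, 0 and 1 UMIs against 5, 1 and 0, so that 14 of its 21 UMIs came from Atf3_high replicate 1.

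Mt1 counted 262, 51 and 300 UMIs in Atf3_high and 302, 133 and 98 in Atf3_low, or 1330, 616 and 1400 CPM against 2040, 1110 and 1330 CPM. Atf3_high replicate 2 was the lowest and Atf3_low replicate 1 the highest, with the other 4 libraries between. The log2 fold change was -0.41 ± 0.37, with an edgeR adjusted p of 0.996, and -0.14 without Atf3_high replicate 2. Its neighbour Mt2 counted 89, 30 and 62 UMIs against 65, 39 and 8, at 0.30 ± 0.45. These neighbouring genes are known to respond together to zinc through metal response elements. Here their signs were opposite and neither differed beyond the spread between libraries.

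The Mt2 promoter is shown because both motifs matched in it. In capitals are 3 metal response element cores (TGCACNC or TGCGCNC, on either strand) and 1 antioxidant response element core. Gclm matched both motifs as well, and its metal response cores at -138 and -72 are not marked in its stretch above. The core at -138 overlaps the antioxidant core at -134, so that its last bases are in capitals there. The Mt2 stretch is the RefSeq stretch chr8:94172388-94172587 of GRCm38.p6, from position -230 to -31 relative to the annotated start on the plus strand.
Mt2: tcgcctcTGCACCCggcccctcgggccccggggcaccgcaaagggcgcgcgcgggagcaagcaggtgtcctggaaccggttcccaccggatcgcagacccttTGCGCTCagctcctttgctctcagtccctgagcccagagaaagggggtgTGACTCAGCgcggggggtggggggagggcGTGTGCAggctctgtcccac
The metal response core is a common short motif, found in 28.6% of the members' windows and 25.7% of all windows.

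The regulators of the NRF2 pathway were not called either. Nfe2l2 counted 28, 2 and 16 UMIs in Atf3_high and 32, 18 and 4 in Atf3_low, or 142, 24.1 and 74.5 CPM against 216, 150 and 54.5 CPM. The groups overlapped, the log2 fold change was -0.76 ± 0.60, and the edgeR adjusted p was 0.986. It was -1.41 without Atf3_high replicate 1 and -0.36 without Atf3_low replicate 1. Keap1, its inhibitor, had 26 UMIs in all and was at 0.18 ± 1.06. The quinone reductase Nqo1, a widely used readout of NRF2, counted 8, 6 and 10 UMIs against 13, 3 and 11 and was at -0.71 ± 0.73.

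Of the members, 12 are textbook NRF2 targets and 10 of these were tested. In Atf3_high, 7 were higher and 3 lower, with a median of 0.75. Over all genes tested, 4233 were higher and 3432 lower, with a median of 0.11. Gclm, Gstm1 and Txn1 are all among the 10, so that 30% had an unadjusted p under 0.05, beside 5.79% of all genes. This share was not tested. The list of 15 further NRF2 partners and targets outside the members had 5 higher, 10 lower and a median of -0.20. It holds partners as well as targets, so its split is not that of targets alone, and the target Srxn1 stands in another list below. The higher targets among the members were Gclm, Txn1, Gsr, Gstm1, Hmox1, Gclc and Txnrd1, and the lower ones Nqo1, Fth1 and Prdx1. Members outside the 12 whose window held TGACNNNGC were Mgst1 (-0.08), Mt2 (0.30), Nfe2l2 (-0.76) and Sod1 (0.02). The list of 12 targets was drawn up with earlier results of these data known. Its 3 members at an unadjusted p under 0.05 did not peak in the same library: Gclm was highest in Atf3_high replicate 2, Txn1 in replicate 1 and Gstm1 in replicate 3.

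**Figure D4:**
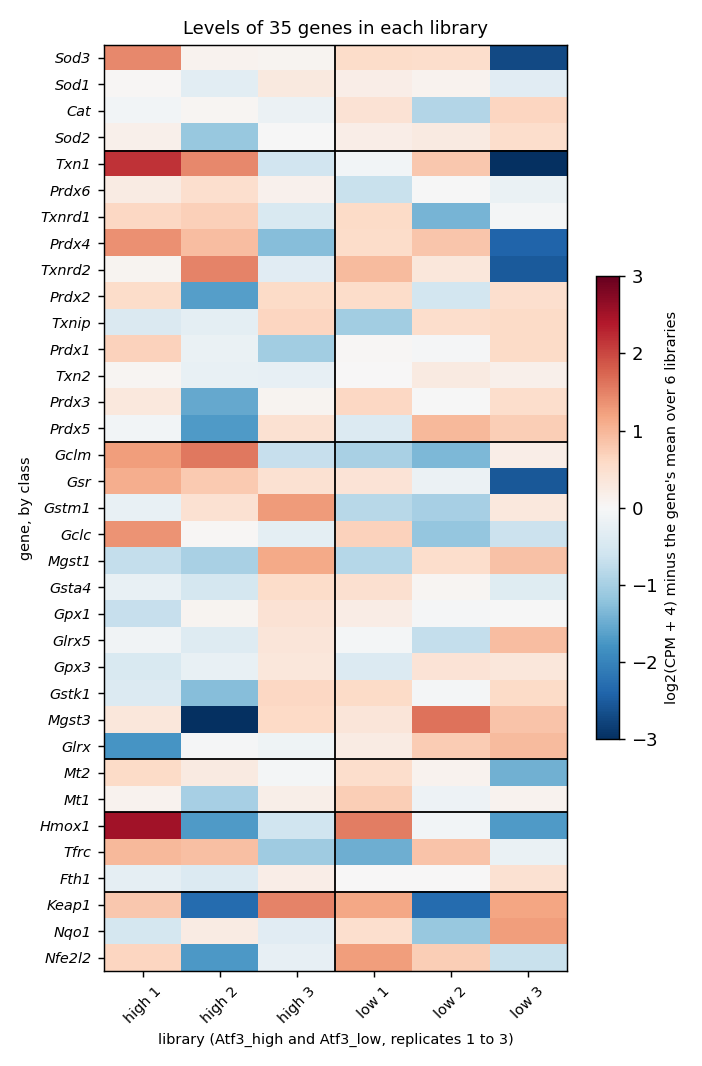
Level of the 35 members in each library as log2(CPM + 4) minus the gene's mean over the 6 libraries (red higher, blue lower, scale from -3 to 3), grouped by class, with Atf3_high left and Atf3_low right of the vertical line. No class is of one colour on one side, and most of the deepest blue cells are genes at or near 0 UMIs in Atf3_high replicate 2 or Atf3_low replicate 3.

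The median member was compared with the median gene in each library. Measured against the Atf3_low mean, the median member differed by 0.05, -0.33 and 0.06 (log2) in Atf3_high replicates 1, 2 and 3, and by 0.22, 0.01 and 0.15 in the Atf3_low replicates. The median over all genes differed by 0.35, 0.04 and 0.29 in the Atf3_high replicates and by 0.18, 0.11 and -0.22 in the Atf3_low replicates. The median member thus lay below the median gene in all 3 Atf3_high libraries and in Atf3_low replicate 2, and above it in Atf3_low replicates 1 and 3, a description that was not tested. The shallowest libraries, Atf3_high replicate 2 and Atf3_low replicate 3, had 5 and 6 of the 37 genes at 0.

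Beyond the 38 genes, 111 genes of the same pathways were examined in 6 lists, of which 85 were tested. None was called (edgeR adjusted p from 0.649 to 1). At an unadjusted p under 0.05 there were 7 (8.24%, beside 5.79% of all genes), 5 higher and 2 lower, and the median was 0.04. Of the 12 further thiol redox genes, Srxn1, the sulfiredoxin that restores over-oxidized peroxiredoxins and an NRF2 target, counted 60, 16 and 22 UMIs in Atf3_high and 3, 7 and 12 in Atf3_low. Its levels of 305, 193 and 102 CPM against 20.2, 58.4 and 163 CPM gave 1.44 ± 0.62 with an edgeR adjusted p of 0.779, and 0.86 without Atf3_low replicate 1 or 2.34 without Atf3_low replicate 3. Atf3_high replicate 3 again lay within the range of Atf3_low. Txndc17, a thioredoxin-like reductase, went the other way, with 10, 3 and 5 UMIs against 25, 5 and 14 (-1.82 ± 0.69, edgeR adjusted p = 0.663), and the third by p, the methionine sulfoxide reductase Msrb3, was at -1.09 ± 0.65.

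Of the 22 glutathione and NADPH genes, 1 had an unadjusted p under 0.05. Chac1, a glutathione-degrading enzyme induced in the integrated stress response, counted 27, 2 and 1 UMIs in Atf3_high and 0, 0 and 1 in Atf3_low (edgeR adjusted p = 0.649), so that 27 of its 31 UMIs came from Atf3_high replicate 1. Slc3a2, the heavy chain of the cystine transporter, was at 0.87 ± 0.52 and the transferase Gstm5, with 14 UMIs, at -1.99 ± 1.30. Of the 15 NRF2 partners and targets, 5 were higher and 10 lower, with 1 at an unadjusted p under 0.05, which was lower. This was Akr1b3 (aldose reductase), which counted 1, 0 and 1 UMIs against 13, 2 and 0 (edgeR adjusted p = 0.804). The pentose phosphate enzyme Taldo1 was at 0.87 ± 0.48, with 401, 338 and 186 CPM against 209, 150 and 136 CPM, and the biliverdin reductase Blvrb counted 3, 4 and 6 UMIs against 0, 1 and 0.

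Of the 21 further iron genes, 16 were higher and 5 lower, with a median of 0.27. Over all genes tested, 4233 were higher and 3432 lower, with a median of 0.11. Of the iron genes 2 had an unadjusted p under 0.05 (9.52%, beside 5.79% of all genes). For 4 of them the groups did not overlap (19%, beside 11% of all genes), 3 being higher and 1 lower. Fech, the ferrochelatase that puts iron into heme, counted 31, 10 and 27 UMIs in Atf3_high and 11, 7 and 2 in Atf3_low. Its 158, 121 and 126 CPM all lay above the 74.1, 58.4 and 27.2 CPM of Atf3_low, at 1.27 ± 0.62 (edgeR adjusted p = 0.854). Lyrm4, which stabilizes the cysteine desulfurase of iron-sulfur cluster synthesis, counted 13, 11 and 9 UMIs against 1, 4 and 1, with 66.1, 133 and 41.9 CPM against 6.74, 33.4 and 13.6 CPM, also without overlap (2.05 ± 0.91, edgeR adjusted p = 0.810). Ceruloplasmin (Cp), the ferroxidase, was likewise higher in every Atf3_high library, with 96.5, 72.4 and 65.2 CPM against 27, 25 and 40.9 CPM (1.36 ± 0.79). Pcbp2 was lower in every Atf3_high library, on 4, 0 and 5 UMIs against 4, 3 and 2 (-0.65 ± 1.13).

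Among the 6 metal and copper genes the zinc exporter Slc30a1 was found only in Atf3_high replicate 1, with 12 UMIs. The zinc importer Slc39a1 and the copper importer Slc31a1 had 12 and 19 UMIs in all, at 1.37 ± 1.42 and -1.06 ± 1.11. None of the 9 selenoprotein genes had an unadjusted p under 0.05, their values running from -0.50 for Selenot to 0.97 for Sephs2, with Selenok at -0.48.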

How the data were processed

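The authors deposited counts of UMIs per gene for 6 photo-isolation chemistry libraries prepared by CEL-seq2, without normalization and with each library kept apart. The submitters' processing notes list HISAT2 (version 2.1.0), UMI-tools (version 1.0.0), featureCounts (version 1.6.4) and GRCm38. The annotation release, the strand setting and the handling of reads mapping to several genes are not given in the sources used here, which bears on genes with near-identical copies or opposite-strand partners.

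Groups follow the labels. The 7665 of 17145 genes whose UMIs summed to 10 or more were normalized by TMM and tested by glmQLFit and glmQLFTest of edgeR (version 4.0.16, R version 4.3.3) without covariates, two-sided, with Benjamini-Hochberg adjustment over all genes tested and a threshold of 0.05. Fold changes are Atf3_high over Atf3_low on the log2 scale, the standard error is the fold change divided by the square root of F, and levels are CPM on TMM-scaled totals. 1 UMI corresponds to 4.66 to 13.6 CPM. The biological coefficient of variation was 53.6%. The test was first tried on simulated counts.

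Alternatives were limma (version 3.58.1), DESeq2 (version 1.42.0), different scalings, filters on low counts, the replicate number as a block, libraries thinned to the shallowest, counts summed with copies (BLAST+ version 2.17.0, at least 95% identity over 200 bases or more) and leaving out each library. Members and lists were chosen with earlier results of these data known. Per-library values are given for members with an unadjusted p under 0.05, the smallest p in each class, the 5 highest levels and groups without overlap, and the 3 smallest p of each further pathway list were named. Values of other members, Gpx4-ps2, Gm17494, Ppia and Pcbp2 were added after they were seen. Sequences are from RefSeq (GRCm38.p6) and GENCODE.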

Additional observations from a re-analysis of the deposited data

How the results depend on the processing

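No member tested was called under any of the 17 alternatives, though only 25 were tested with filterByExpr, 34 when thinned and 34 without Atf3_high replicate 1, and DESeq2 gave no adjusted p for 16, and the lowest adjusted p of Gclm was 0.398, without Atf3_high replicate 3. The members at an unadjusted p under 0.05 fell to 1 with filterByExpr (beside 5.99% of all genes) and with DESeq2 (beside 3.25%). Without overlap there was 1 with filterByExpr, beside 12.6% of all genes. Over all genes DESeq2 called 12, limma-trend 3 and the libraries thinned to 81117 UMIs 4. Leaving out 1 library, the genes called ran from 0 to 11. The count was 1 without Atf3_high replicate 1, Atf3_high replicate 2 or Atf3_low replicate 3. It was 0 without Atf3_low replicate 1 and 11 without Atf3_high replicate 3. Members at an unadjusted p under 0.05 ran from 0 to 3, beside 4.27% to 6.79% of all genes. Members without overlap ran from 4 of 35 without Atf3_high replicate 2 to 12 of 35 without Atf3_high replicate 3. The shares of all genes there were 18.8% and 23.9% (11.0% with every library). The members' median ran from -0.32 without Atf3_high replicate 3 to 0.02 without Atf3_high replicate 2. The median over all genes was 0.05 and 0.11 in these fits. The numbers shared by the groups cannot be taken to pair the replicate 2 libraries by heart. Whether they pair those of replicates 1 and 3 was not settled. The correlations of same-numbered libraries were 0.0851, 0.000876 and 0.0656, and values this near 0 from 3 libraries a group cannot decide it. Each library correlated best with its own number except those of replicate 2. There, Atf3_high replicate 2 held 16 Y-linked UMIs and 0 of Xist, and Atf3_low replicate 2 held 0 and 13. With the replicate block, which treats the replicate 2 libraries as a pair too, 24 genes were called and 0 members.
Small fold changes turned sign. Sod1 was -0.01 with DESeq2 size factors or DESeq2. With library size alone Prdx1 was 0.00, Prdx2 0.18, Txnip 0.08, Gpx1 0.13, Glrx5 0.06, Gsta4 0.13 and Mgst1 0.10. Without the filter Prdx2 was 0.04 and Mgst1 0.02. With limma-voom Txnip was 0.06, Glrx5 0.04 and Hmox1 -0.01. Keap1 was -0.02 with limma-trend and -0.05 with the replicate block. Thinned, Txnip was 0.19, Gsta4 0.04 and Keap1 -0.04. With 1 library left out, values ran from -0.14 to 0.14 for Sod1, -0.03 to 0.96 for Sod3, -0.81 to 0.12 for Prdx1, -0.38 to 0.32 for Prdx2, -0.30 to 0.98 for Prdx4, -0.02 to 1.01 for Txnrd1, -0.47 to 0.91 for Txnrd2, -0.54 to 0.13 for Txnip, -0.41 to 0.21 for Gpx1, -0.53 to 0.34 for Glrx5, -0.06 to 1.69 for Gclc, -0.50 to 0.13 for Gsta4, -1.27 to 0.29 for Mgst1, -0.09 to 0.67 for Mt2, -0.04 to 1.31 for Tfrc, -0.54 to 0.70 for Keap1 and -1.59 to 0.65 for Msrb3. The cause of these changes was not tested.
Depth limits what can be seen: with 3 libraries a group and 81117 to 210588 UMIs, genes of a few UMIs have standard errors over 1. Intervals cover the spread between these libraries, and a p that misses the threshold does not show that levels are alike.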
